A study of Mus musculus with 12 samples.

Results

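The mitochondrial ribosomal proteins are the protein subunits of the ribosome inside mitochondria, and nearly all of them are named Mrps (small subunit) or Mrpl (large subunit) with a number. The rows of the count table whose gene symbol begins with Mrpl or Mrps followed by a digit were taken, which gave 76 genes of 12752 in all, and all 76 passed the filter on low counts. Their names fixed which genes were taken, but the set was chosen with earlier results of these data known. The muscle was the tibialis anterior, taken whole from male mice of the C57BL/6 strain, and libraries were made from 200 ng of total RNA after poly-A enrichment. At an age of 8 weeks every muscle received AAV:TET, a viral vector for doxycycline-dependent expression, and with it the empty vector or, on the opposite side, AAV:Dux. After 7 days on normal chow, mice stayed on it or received chow with 600 mg/kg doxycycline for a further 2 or 7 days, and the labels do not say which applied here. The 4 groups of 3 libraries were EV (empty vector, normal chow), EV_DOX (empty vector, doxycycline chow), DUX (Dux vector, normal chow) and DUX_DOX (Dux vector, doxycycline chow). The labels do not say whether the libraries of a group are separate animals, so p-values measure only the spread between these libraries. EV and DUX libraries, or EV_DOX and DUX_DOX libraries, may be the 2 limbs of 1 animal, and the labels do not say which, so comparisons between vectors treat them as unpaired.

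The mitochondrial ribosome translates the few messenger RNAs made from mitochondrial DNA, which encode core subunits of the respiratory chain and ATP synthase. Its RNAs come from mitochondrial DNA, but all its proteins are encoded in the nucleus, made in the cytosol and imported, so their messenger RNA levels are set by nuclear transcription and RNA decay. Part of the proteins have a homologue in bacterial ribosomes and the rest are specific to mitochondria. Tetracyclines such as doxycycline bind the small subunit of bacterial ribosomes and also inhibit translation in mitochondria, and skeletal muscle is a tissue rich in mitochondria. Each doxycycline-fed group therefore carries a drug that acts on the ribosome these genes encode, and EV_DOX against EV shows the effect of the chow without the Dux vector.

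Library totals lay between 11880593 and 13811999 counts, and single members had 53 to 3135 counts per library. Zscan4c, a gene that mouse Dux activates in the early embryo and whose reads may be shared with near-identical copies, had 283, 522 and 409 counts in the DUX_DOX libraries and 0 or 1 in each of the other 9. Levels are CPM, counts rescaled to a library total of 1000000, and 3 values in a row are libraries 1, 2 and 3 of a group. Tests are those of edgeR over 12751 genes, and a gene is said to be called where its Benjamini-Hochberg adjusted p was below 0.05. Fold changes are log2 values with their standard error (SE).

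The 76 genes together accounted for 2324, 2662 and 2246 CPM in EV, 2247, 2579 and 2930 CPM in EV_DOX, 2927, 2858 and 2863 CPM in DUX, and 2514, 2151 and 2498 CPM in DUX_DOX. The 3 DUX libraries lay close together and above all 3 DUX_DOX libraries, whereas EV and EV_DOX overlapped with each other and with DUX_DOX. Group means were 2411 ± 221 (SD, n = 3) in EV, 2585 ± 342 in EV_DOX, 2883 ± 38.1 in DUX and 2387 ± 205 in DUX_DOX. The coefficient of variation of single members between the libraries of a group had a median of 4.72% in DUX, against 10.9% in EV, 13.7% in EV_DOX and 9.03% in DUX_DOX. DUX was the group with the highest mean for 62 of the 76 genes, and the lowest mean lay in DUX_DOX for 40 genes and in EV for 31.

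Single libraries stood apart within their groups. DUX_DOX 2 held the lowest level of the 12 libraries for 32 genes, EV 3 for 16, EV_DOX 1 for 14 and EV 1 for 11, whereas EV_DOX 3 and DUX 1 held the highest level for 21 genes each. Markers of other cell types differed between the same libraries. The 6 tenocyte markers (Tnmd, Scx, Fmod, Comp, Thbs4 and Mkx) summed to 958 CPM in EV 3 and 882 CPM in EV_DOX 1, and to 102 to 310 CPM in the other 10 libraries. The 7 fibro-adipogenic markers summed to 1143 to 3064 CPM in EV and 837 to 2947 CPM in EV_DOX, lowest in EV_DOX 3, and to 1240 to 1756 CPM in DUX and 1639 to 2266 CPM in DUX_DOX. In bulk tissue, fewer cells of a type and less RNA per cell cannot be told apart, and the part of these markers in the levels of the ribosomal protein genes was not tested.

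**Figure D1:**
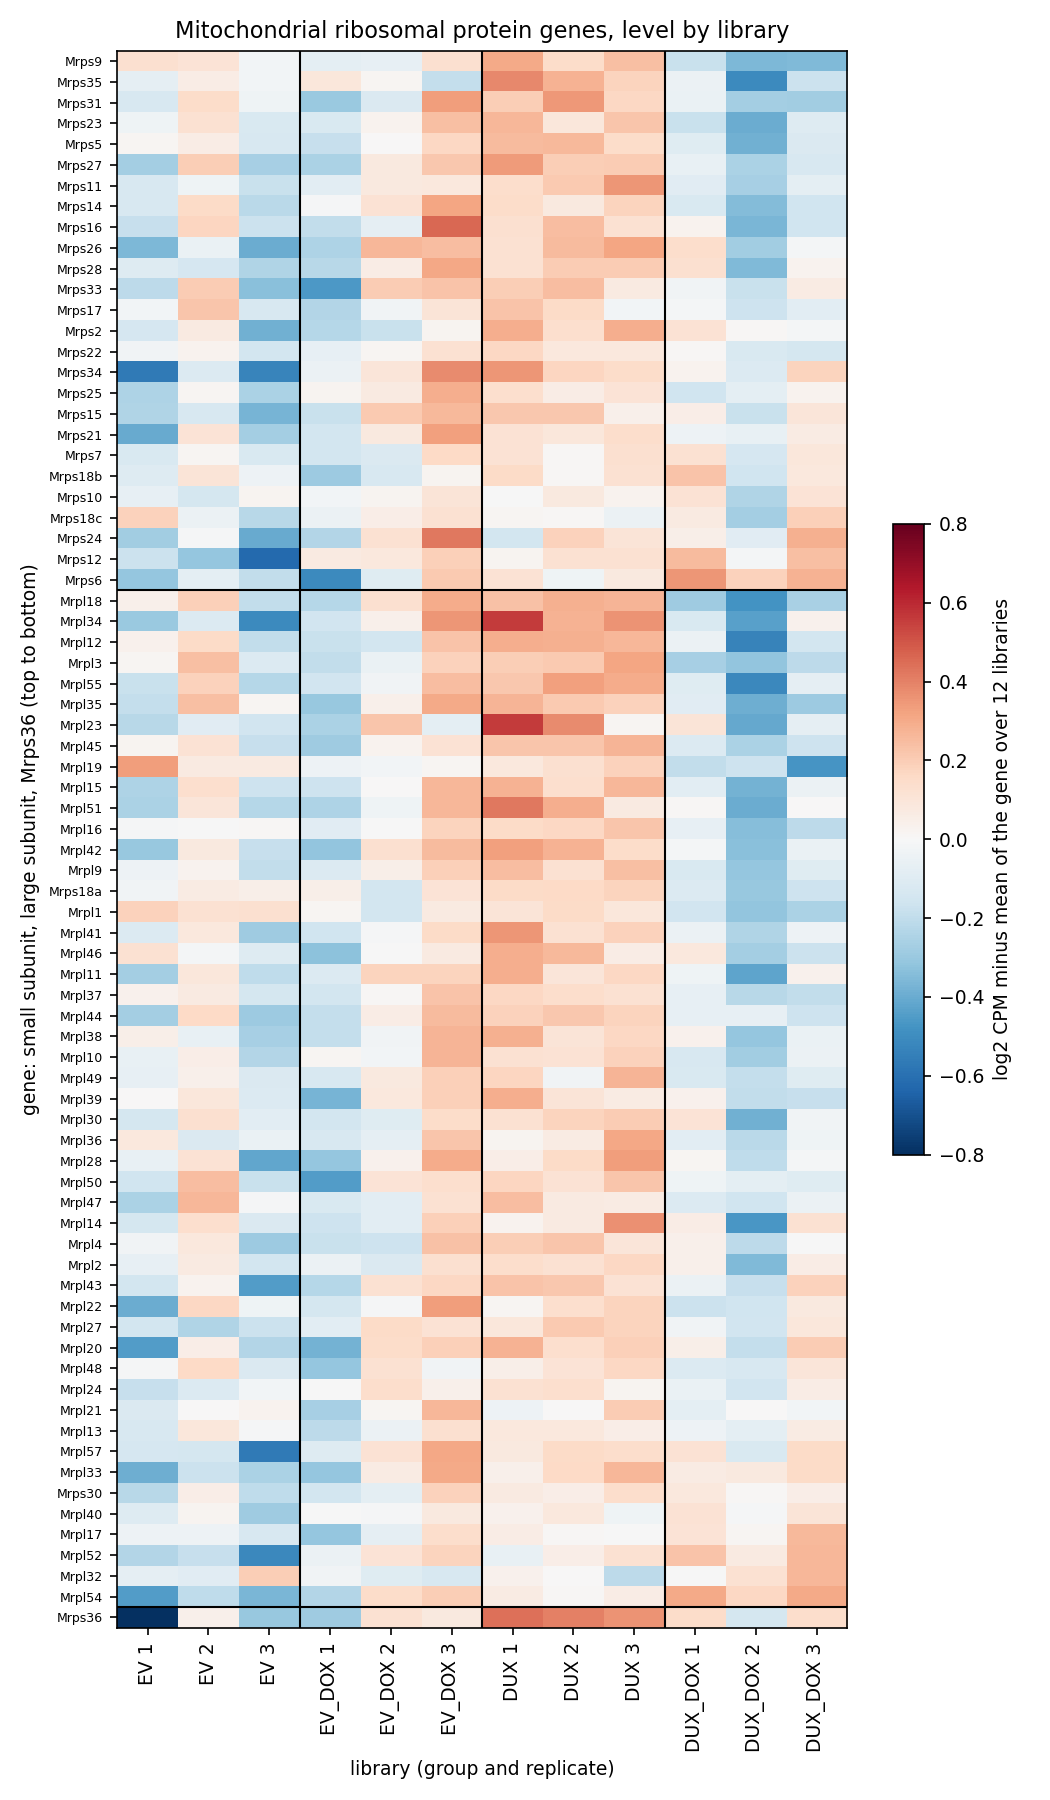
Level of each of the 76 genes (rows, ordered by subunit and then by fold change of DUX_DOX against DUX) in each of the 12 libraries (columns), as log2 CPM minus the mean of the gene over all libraries. DUX columns are mostly red, DUX_DOX 2, EV 3, EV_DOX 1 and EV 1 are mostly blue, and Mrpl54 and Mrps6 are red in all 3 DUX_DOX libraries.

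Levels between genes were compared per kilobase of exon (RPKM), as mean ± SD over the 12 libraries. The median gene stood at 13.0 RPKM, and 39 of the 76 lay within 2-fold of it. The highest were Mrps21 with 61.9 ± 8.24 RPKM, Mrpl12 with 59.5 ± 10.04 RPKM and Mrpl42 with 54.3 ± 8.85 RPKM, and the lowest were Mrps10 with 2.73 ± 0.195 RPKM, Mrps35 with 1.79 ± 0.284 RPKM and Mrpl23 with 1.05 ± 0.214 RPKM. Mrpl12 forms the stalk of the large subunit that recruits translation factors, and Mrpl23 lies at the exit of the peptide tunnel. The SDs of Mrps21, Mrpl12 and Mrpl42 overlap, so their order is not resolved. The length used counts all annotated exons of a gene, whether or not the muscle uses them. It was 8079 bases for Mrps10, 8631 for Mrps35 and 4883 for Mrpl23, against 739 for Mrps21, 1532 for Mrpl12 and 3682 for Mrpl42. The part of this length in the ranks and in the subunit medians was not tested. The median was 8.33 RPKM for the 26 genes of the small subunit and 14.5 RPKM for the 49 of the large subunit. Of the remaining gene, Mrps36, the protein was first named as a subunit of this ribosome and is now known as a part of the 2-oxoglutarate dehydrogenase complex. Mrps18a, Mrps18b and Mrps18c, 3 relatives of the bacterial S18 protein, stood at 11.8 ± 1.21, 9.85 ± 1.01 and 9.28 ± 0.895 RPKM, with overlapping SDs.

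Promoters were read because nuclear genes for mitochondrial proteins are known to carry sites for NRF1, for ETS factors such as GABP and for YY1, and because 24 members moved together between DUX_DOX and DUX as described further on. RefSeq (GRCm38.p6) held a promoter entry for 67 of the 76 genes, and the 250 bases before the start were searched on both strands, with matches of different motifs allowed to overlap. The NRF1-type motif was found in 10 of the 67 (14.9%), in 9.27% of the promoters of measured genes and in 4.23% of all promoters. The ETS-type motif CCGGAAG was found in 16 of the 67 (23.9%), in 15.4% of measured and 7.83% of all promoters, and the YY1-type motif AAGATGG in 6 (8.96%), in 5.11% and in 5.18%. Of the 21 members with a promoter entry that were called lower in DUX_DOX against DUX, 3 held the first motif, 5 the second and 1 the third. A match is a run of letters and not a measured binding site. Windows of 4 genes called lower in that comparison are printed below, 1 for each motif and 1 for the gene that has the first motif at 2 places, on the gene's strand from 5′ to 3′ with the motif in capitals.
Mrpl9, chr3:94443284-94443335, plus strand, NRF1-type: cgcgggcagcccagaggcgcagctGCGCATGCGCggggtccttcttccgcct
Mrpl45, chr11:97315654-97315711, plus strand, NRF1-type: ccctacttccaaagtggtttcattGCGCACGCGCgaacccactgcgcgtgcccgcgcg
Mrpl34, chr8:71464865-71464919, plus strand, ETS-type: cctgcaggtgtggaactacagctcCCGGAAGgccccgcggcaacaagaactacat
Mrps11, chr7:78783001-78783055, plus strand, YY1-type on the other strand: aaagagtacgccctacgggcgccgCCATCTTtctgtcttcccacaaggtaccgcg
The motifs began 28 bases before the RefSeq start in Mrpl9, 38 in Mrpl45, 37 in Mrpl34 and 106 in Mrps11, and the second motif of Mrpl45 began 120 bases before it.

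The effect of doxycycline chow in muscles with the empty vector was read from EV_DOX against EV. No member passed the test, and Mrps12, Mrps34 and Mrpl54 had the smallest p among those with a positive fold change. Of all genes tested, 0.0392% were called higher and 0% lower. At an unadjusted p under 0.05 there were 12 of the 76 genes (7.83% of all genes), all with a positive fold change, and DESeq2 and limma-voom called 0 members as well. Over all genes, DESeq2 called 12 in this comparison and limma-voom 0. The fold change was positive for 57 of the 76 genes (48.9% of all genes), with a median of 0.10, and the median of all genes tested was -0.00.

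Mrps12, the small-subunit protein of the decoding centre whose bacterial counterpart carries streptomycin resistance mutations, had 20.6, 18.8 and 15.1 CPM in EV, 24.5, 24.6 and 26.5 in EV_DOX, 23.6, 25.3 and 25.3 in DUX, and 27.7, 22.96 and 27.4 in DUX_DOX. Mrps34, a mitochondria-specific protein of the small subunit, had 20.7, 28.4 and 21.3 CPM in EV, 29.6, 32.7 and 39.8 in EV_DOX, 39.1, 34.4 and 33.9 in DUX, and 31.2, 28.4 and 34.5 in DUX_DOX. Mrpl54, a mitochondria-specific protein of the large subunit, had 24.4, 28.9 and 25.9 CPM in EV, 28.3, 36.9 and 38.1 in EV_DOX, 34.8, 33.5 and 34.7 in DUX, and 41.1, 37.4 and 41.04 in DUX_DOX. All 3 EV libraries lay below all 3 EV_DOX libraries for Mrps12 and Mrps34, and EV 2 was above EV_DOX 1 for Mrpl54. The fold changes were 0.47 (SE 0.11, adjusted p = 0.385) for Mrps12, 0.54 (SE 0.14, adjusted p = 0.410) for Mrps34 and 0.38 (SE 0.11, adjusted p = 0.463) for Mrpl54. The next were Mrpl52 with 0.39 (SE 0.11, adjusted p = 0.463), Mrps15 with 0.35 and Mrpl57 with 0.38. EV_DOX lay above EV without overlap for 7 members (5.69% of all genes) and below it for 2 (6.45%). The 3 EV libraries stood below all other 9 for 4 members (1.61% of all genes), which were Mrpl52, Mrpl57, Mrps12 and Mrps34.

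Among members with a negative fold change, Mrpl1, which forms the mobile stalk near the exit site of transfer RNA, had 29.002, 27.8 and 27.9 CPM in EV, 25.8, 23.003 and 26.8 in EV_DOX, 27.4, 28.3 and 27.1 in DUX, and 22.9, 20.5 and 21.4 in DUX_DOX. Mrpl19, at the interface between the subunits in bacteria, had 23.99, 19.96 and 19.9 CPM in EV, 18.5, 18.7 and 19.2 in EV_DOX, 20.2, 20.8 and 21.6 in DUX, and 16.6, 16.9 and 13.7 in DUX_DOX. Mrps18b had 19.05, 21.96 and 19.9 CPM in EV, 16.7, 18.7 and 20.8 in EV_DOX, 22.8, 20.6 and 22.3 in DUX, and 23.997, 18.3 and 21.7 in DUX_DOX. The EV_DOX libraries were below EV without overlap for Mrpl1 (-0.17, SE 0.08, adjusted p = 0.655) and Mrpl19 (-0.18, SE 0.10, adjusted p = 0.687), and the groups overlapped for Mrps18b (-0.12, SE 0.12, adjusted p = 0.821). The remaining 3 named by p were Mrpl32 with -0.10, Mrps9 with -0.07 and Mrps17 with -0.08. The median over the 76 genes was 0.18 without EV_DOX 1 and -0.01 without EV_DOX 3, and it was 0.04 without EV 3, 0.15 without EV 2 and 0.03 with an offset for transcript length. The direction of this comparison therefore turned with 1 library.

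**Figure D2:**
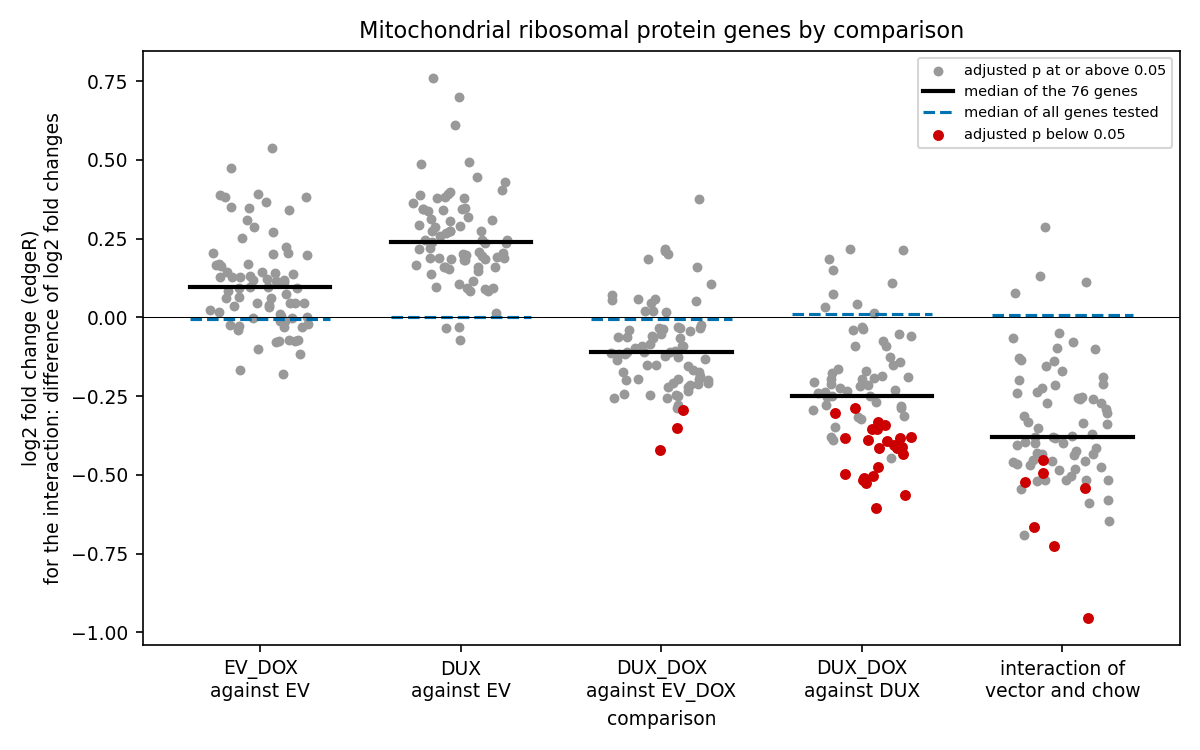
Log2 fold change (edgeR) of each of the 76 genes in the 4 comparisons of groups, and the difference of fold changes for the interaction of vector and chow. Red points passed an adjusted p of 0.05, black bars are the median of the 76 genes and dashed blue bars that of all genes tested. Red points appear in the 3 columns that involve DUX_DOX, and all of them lie below 0.

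The Dux vector without doxycycline was compared with the empty vector on the same chow. No member passed the test in DUX against EV, in which 0% of all genes were called higher and 0% lower, and the largest values belonged to Mrpl34, Mrps34 and Mrps36. At an unadjusted p under 0.05 there were 34 of the 76 genes (15.8% of all genes). The fold change was positive for 73 of the 76 (50.2% of all genes), with a median of 0.24, against 0.00 for all genes tested. The 3 DUX libraries lay above the 3 EV libraries for 43 members (11.3% of all genes) and below them for 0 (11.6%). DUX stood above all other 9 libraries for 8 members (1.18% of all genes), which were Mrpl12, Mrpl45, Mrps11, Mrps18a, Mrps2, Mrps35, Mrps36 and Mrps9.

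Mrpl34, a homologue of a small basic protein of the bacterial large subunit, had 16.1, 18.4 and 13.96 CPM in EV, 17.9, 20.4 and 25.4 in EV_DOX, 29.3, 24.1 and 25.5 in DUX, and 18.3, 14.7 and 20.3 in DUX_DOX. Mrps36 had 9.56, 19.7 and 15.6 CPM in EV, 15.8, 20.8 and 20.3 in EV_DOX, 26.01, 25.3 and 24.7 in DUX, and 21.3, 17.4 and 21.1 in DUX_DOX, with EV 1 the lowest of the 12 libraries. DUX lay above EV without overlap for Mrpl34, Mrps36 and Mrps34. Their fold changes were 0.70 (SE 0.15, adjusted p = 0.179), 0.76 (SE 0.19, adjusted p = 0.192) and 0.61 (SE 0.14, adjusted p = 0.185). DESeq2 called these 3 and Mrps12 higher, 4 of the 64 members to which it gave an adjusted p, against 1.12% of the 5335 such genes, with adjusted p of 0.00792 for Mrpl34, 0.0106 for Mrps34 and 0.0185 for Mrps36, and edgeR called the first 3 without EV 2. Mrpl32, which a mitochondrial protease must cleave before it is built into the ribosome, had 19.05, 18.8 and 22.9 CPM in EV, 19.6, 18.7 and 18.3 in EV_DOX, 20.5, 20.1 and 17.3 in DUX, and 19.96, 21.8 and 24.04 in DUX_DOX. It had the lowest fold change, -0.07 (SE 0.11, adjusted p = 0.778), followed by -0.03 for Mrpl1 and -0.03 for Mrpl19, and for all 3 the groups overlapped. The tenocyte markers summed to 102 to 168 CPM in DUX and 173 to 958 CPM in EV, and the part of this difference in the fold changes was not tested. Red blood cell markers summed to 224 to 537 CPM in DUX and 130 to 179 CPM in EV, with all 5 fold changes positive, and their part was not tested either. The median over the members was 0.18 without EV 3, 0.32 without EV 2 and 0.14 with an offset for transcript length.

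The effect of doxycycline chow in muscles with the Dux vector was read from DUX_DOX against DUX. In these muscles the chow also switches on Dux, so the drug and Dux cannot be told apart in this comparison. Here 24 of the 76 genes were called lower and 0 higher, against 13.1% of all genes lower and 16.5% higher. The called members fell by 18.1% to 34.2%, led by Mrps9, Mrpl18 and Mrpl3 in order of p. The fold change was positive for 9 members (51.1% of all genes), with a median of -0.25, against 0.01 for all genes tested. At an unadjusted p under 0.05 there were 33 members (41.5% of all genes). DUX_DOX lay below DUX without overlap for 45 members (22.6% of all genes) and above it for 2, Mrpl54 and Mrps6 (26.0%). All 3 DUX_DOX libraries stood below the other 9 libraries for 5 members (10.8% of all genes), namely Mrpl1, Mrpl18, Mrpl19, Mrpl3 and Mrps9.

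Mrps9, a homologue of the bacterial S9 protein whose tail reaches transfer RNA in the peptidyl site, had 30.2, 29.8 and 27.2 CPM in EV, 26.2, 26.5 and 30.3 in EV_DOX, 34.1, 30.7 and 32.7 in DUX, and 24.5, 21.6 and 21.6 in DUX_DOX. Mrpl18, of the central protuberance of the large subunit, had 56.4, 62.7 and 47.8 CPM in EV, 46.8, 60.02 and 67.5 in EV_DOX, 64.6, 66.8 and 66.3 in DUX, and 44.9, 39.3 and 45.8 in DUX_DOX. Mrpl3, whose bacterial counterpart lies near the peptidyl transferase centre, had 39.9, 46.6 and 36.5 CPM in EV, 34.4, 38.03 and 44.8 in EV_DOX, 45.2, 45.6 and 49.01 in DUX, and 32.8, 31.8 and 34.1 in DUX_DOX. The highest DUX_DOX library of each of these genes was below the lowest library of every other group. The fold changes were -0.53 (SE 0.09, adjusted p = 0.000666) for Mrps9, -0.60 (SE 0.13, adjusted p = 0.00266) for Mrpl18 and -0.50 (SE 0.11, adjusted p = 0.00302) for Mrpl3.

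Further falls in the large subunit began with Mrpl34 (-0.56, SE 0.15, adjusted p = 0.0117), whose levels are given above, and Mrpl12, which had 92.1, 100.04 and 78.4 CPM in EV, 79.6, 81.3 and 105 in EV_DOX, 109.7, 109 and 108 in DUX, and 86.9, 61.9 and 81.2 in DUX_DOX. Mrpl12 had its lowest library in DUX_DOX 2, DUX lay above all other libraries, and the fold change was -0.51 (SE 0.13, adjusted p = 0.0109). Mrpl55 had 28.7, 36.95 and 27.7 CPM in EV, 29.2, 31.8 and 38.5 in EV_DOX, 37.6, 40.8 and 39.8 in DUX, and 30.3, 22.7 and 30.8 in DUX_DOX. Mrpl35 had 27.98, 37.8 and 32.4 CPM in EV, 25.9, 32.9 and 39.5 in EV_DOX, 38.6, 37.01 and 36.4 in DUX, and 30.1, 24.4 and 26.1 in DUX_DOX. Both had DUX_DOX 2 as the lowest of the 12 libraries and fell, with -0.50 for Mrpl55 and -0.47 for Mrpl35. Mrpl45, which in mammals binds the ribosome to the inner membrane near the tunnel exit, had 50.5, 53.8 and 43.7 CPM in EV, 40.7, 50.5 and 53.8 in EV_DOX, 57.8, 57.8 and 59.9 in DUX, and 46.01, 41.7 and 44.2 in DUX_DOX. Mrpl15 had 45.5, 59.5 and 48.3 CPM in EV, 48.3, 54.2 and 64.9 in EV_DOX, 65.5, 59.4 and 65.1 in DUX, and 51.04, 41.7 and 52.3 in DUX_DOX. The fold changes were -0.41 (SE 0.10, adjusted p = 0.00871) and -0.39 (SE 0.13, adjusted p = 0.0305), and EV overlapped with DUX_DOX in Mrpl15. Mrpl16, in bacteria a neighbour of the site where the aminoacyl transfer RNA binds, had 32.2, 32.3 and 32.5 CPM in EV, 30.4, 32.3 and 36.6 in EV_DOX, 35.98, 36.2 and 37.8 in DUX, and 30.9, 25.5 and 27.98 in DUX_DOX. Mrpl9 had 38.5, 40.4 and 34.6 CPM in EV, 36.8, 40.97 and 45.2 in EV_DOX, 47.1, 43.2 and 46.8 in DUX, and 36.4, 32.04 and 37.02 in DUX_DOX. All 3 DUX libraries were above EV in both genes, and the fold change against DUX was -0.38 (SE 0.09, adjusted p = 0.00601), beside -0.38 (SE 0.10, adjusted p = 0.00894) for Mrpl9.

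Mrps18a, placed in the large subunit despite its name, had 42.6, 45.5 and 44.9 CPM in EV, 44.8, 39.3 and 46.8 in EV_DOX, 48.4, 48.6 and 49.2 in DUX, and 40.3, 35.2 and 38.8 in DUX_DOX, and its fold change was -0.35 (SE 0.08, adjusted p = 0.00570). Mrpl41 had 17.9, 20.5 and 15.9 CPM in EV, 17.3, 19.2 and 21.5 in EV_DOX, 24.7, 21.1 and 21.97 in DUX, and 18.7, 16.4 and 18.8 in DUX_DOX. Mrpl37 had 73.1, 75.2 and 64.7 CPM in EV, 64.5, 71.9 and 83.7 in EV_DOX, 80.2, 78.8 and 77.9 in DUX, and 68.2, 61.4 and 62.4 in DUX_DOX. These are mitochondria-specific proteins and fell by 0.33 (Mrpl41) and 0.30 (Mrpl37) on the log2 scale. Mrpl10, the base on which the Mrpl12 stalk is built, had 33.2, 35.8 and 29.4 CPM in EV, 34.97, 34.001 and 41.8 in EV_DOX, 37.6, 37.5 and 39.3 in DUX, and 31.7, 28.5 and 33.5 in DUX_DOX. Its 3 DUX_DOX libraries lay below both DUX and EV_DOX, with -0.29 (SE 0.10, adjusted p = 0.0447). Mrpl1 and Mrpl19, whose levels are given above, had -0.35 (SE 0.08, adjusted p = 0.00591) and -0.40 (SE 0.11, adjusted p = 0.0110).

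In the small subunit, Mrps35 had 14.6, 15.95 and 15.04 CPM in EV, 16.3, 15.5 and 13.4 in EV_DOX, 20.004, 18.5 and 17.3 in DUX, and 14.8, 10.7 and 13.6 in DUX_DOX. Mrps5, a homologue of the bacterial S5 protein of the decoding region, had 33.9, 34.9 and 30.6 CPM in EV, 29.5, 33.6 and 37.6 in EV_DOX, 40.01, 40.1 and 37.1 in DUX, and 31.4, 25.7 and 30.99 in DUX_DOX. Mrps23 had 56.3, 62.6 and 52.8 CPM in EV, 52.9, 58.6 and 68.1 in EV_DOX, 69.1, 61.2 and 67.02 in DUX, and 50.8, 43.6 and 53.6 in DUX_DOX. DUX_DOX 2 was the lowest of the 12 libraries in each of them, and they fell by 0.52, 0.41 and 0.42 on the log2 scale, with adjusted p of 0.00665, 0.00918 and 0.0100. Mrps31 had 23.04, 27.98 and 24.6 CPM in EV, 20.5, 23.3 and 31.8 in EV_DOX, 28.9, 32.1 and 28.2 in DUX, and 24.3, 20.9 and 20.8 in DUX_DOX. Mrps27 had 26.3, 36.6 and 26.5 CPM in EV, 26.7, 33.7 and 37.01 in EV_DOX, 40.3, 36.5 and 36.6 in DUX, and 30.6, 26.7 and 29.1 in DUX_DOX. Mrps11, a homologue of the bacterial S11 protein of the platform, had 13.2, 14.1 and 12.8 CPM in EV, 13.7, 15.3 and 15.3 in EV_DOX, 15.97, 16.7 and 18.5 in DUX, and 13.6, 12.01 and 13.7 in DUX_DOX. Mrps14, of the head of the small subunit, had 26.3, 31.98 and 24.8 CPM in EV, 28.5, 31.1 and 35.8 in EV_DOX, 31.9, 30.3 and 32.5 in DUX, and 26.4, 22.6 and 25.7 in DUX_DOX. All 3 DUX_DOX libraries of these genes lay below all 3 DUX libraries, and the fold changes were -0.43 for Mrps31, -0.39 for Mrps27, -0.38 for Mrps11 and -0.34 for Mrps14.

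The 3 positive members with the smallest p did not pass. Mrps6 had 7.37, 8.66 and 7.98 CPM in EV, 6.42, 8.52 and 10.6 in EV_DOX, 9.88, 8.93 and 9.64 in DUX, and 11.7, 10.4 and 11.1 in DUX_DOX, and its 3 DUX_DOX libraries were above DUX without overlap. The fold changes were 0.22 (SE 0.15, adjusted p = 0.304) for Mrps6, 0.21 (SE 0.11, adjusted p = 0.146) for Mrpl54 and 0.19 (SE 0.11, adjusted p = 0.214) for Mrpl32. The count of 24 became 15 without DUX 1 and 14 without DUX_DOX 2, and it was 35 when these groups alone were fitted, 34 with an offset for GC content and 41 with one for transcript length. The shares of all genes called in these fits were not computed. Among the alternatives, 12 of the 24 were called in each of the 22, including Mrps9, Mrpl18, Mrpl3 and Mrpl12. Markers of macrophages and monocytes were higher in DUX_DOX (11 of 12 called, summed level 261 to 376 CPM against 147 to 164 CPM in DUX), 3 of 10 muscle fibre markers were called lower (135113 to 151597 CPM against 161803 to 180865 CPM), and their part in the falls was not tested. Of other markers, 2 of 3 for adipocytes, 2 of 7 for endothelium and 1 of 5 for red blood cells were called lower, and all of these markers had negative fold changes. All 6 tenocyte markers (225 to 310 CPM against 102 to 168 CPM in DUX) and 6 of 7 fibro-adipogenic ones had positive fold changes, with 0 called. Of 4 satellite cell markers 1 was called higher and 3 had negative fold changes. Of all genes, 13.1% were called lower and 16.5% higher. The part of these markers was not tested. None of 6 T and B cell markers was in the rows analysed.

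**Figure D3:**
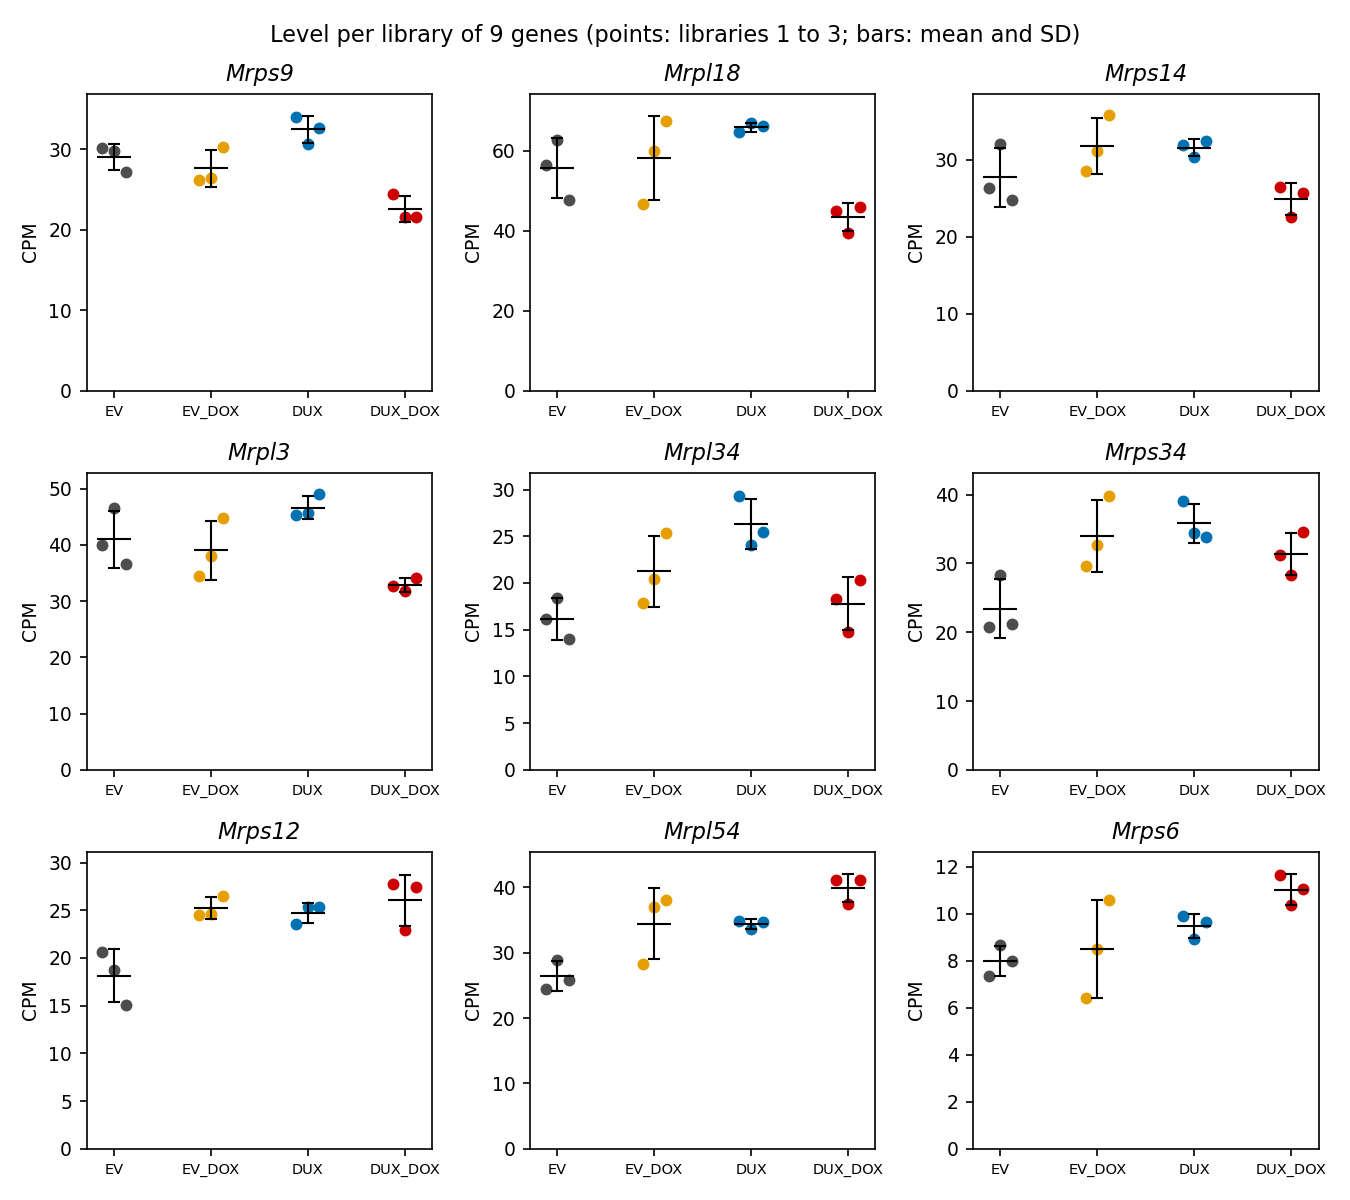
CPM of 9 members in each library (points, libraries 1 to 3 from left to right within a group) with the group mean and SD (bars), each axis from 0. Mrps9, Mrpl18 and Mrpl3 have their 3 lowest libraries in DUX_DOX, Mrpl34 is highest in DUX, Mrps34 and Mrps12 are lowest in EV, and Mrpl54 and Mrps6 have their highest mean in DUX_DOX.

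The Dux vector was then compared with the empty vector on doxycycline chow, so that both groups carried the drug. In DUX_DOX against EV_DOX, Mrpl18, Mrps9 and Mrps14 were called lower and 0 members higher, against 10.3% of all genes lower and 14.9% higher, a smaller share of members than of all genes. They fell by 25.4%, 18.4% and 21.6%, with -0.42 (SE 0.13, adjusted p = 0.0240), -0.29 (SE 0.09, adjusted p = 0.0288) and -0.35 (SE 0.11, adjusted p = 0.0318). At an unadjusted p under 0.05 there were 12 members (37.8% of all genes). The fold change was positive for 16 members (49.4% of all genes), with a median of -0.11, against -0.01 for all genes tested. DUX_DOX lay below EV_DOX without overlap for 7 members (17.3% of all genes) and above it for 1, Mrpl32 (21.4%).

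Mrpl1 (-0.22, SE 0.08, adjusted p = 0.0680), Mrps23 (-0.28, SE 0.11, adjusted p = 0.0707) and Mrpl16 (-0.23, SE 0.09, adjusted p = 0.0721) came next and did not pass. Among positive values Mrps6 had 0.38 (SE 0.15, adjusted p = 0.0872), followed by 0.22 for Mrpl32, 0.21 for Mrpl54, 0.20 for Mrpl17, 0.19 for Mrps18b and 0.16 for Mrps2. The 3 calls depended on single libraries: 0 members were called lower without EV_DOX 3 or without DUX_DOX 2, 1 without DUX_DOX 3, 1 when these groups alone were fitted and 9 without EV_DOX 1, and the median was -0.0011 without EV_DOX 3. The count was 6 with upper-quartile scaling, 12 with an offset for GC content and 18 with one for transcript length, and without EV_DOX 3 Mrps6 and Mrpl17 were called higher. Upper-quartile scaling called 3356 genes in both directions together, against 3224 in the main fit. Such totals were not computed for the offsets and the subsets of libraries. In this comparison 10 of 12 macrophage markers were called higher, 2 of 10 muscle fibre markers lower, and the tenocyte sums were 225 to 310 CPM in DUX_DOX and 126 to 882 CPM in EV_DOX.

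Whether the change with doxycycline chow differed between the 2 vectors was tested as the interaction, the chow effect in Dux muscles minus that in empty vector muscles. In Dux muscles the chow effect includes the switching on of Dux. The same value is the fold change of DUX_DOX against EV_DOX minus that of DUX against EV, which had medians of -0.11 and 0.24 over the members. The interaction was called lower for 7 members and higher for 0, against 3.43% of all genes lower and 6.97% higher. These were Mrpl34 with -0.96 (SE 0.21, adjusted p = 0.0120), Mrps34 with -0.73 (SE 0.19, adjusted p = 0.0275), Mrpl18 with -0.67 (SE 0.18, adjusted p = 0.0285), Mrps14 with -0.54 (SE 0.16, adjusted p = 0.0424), Mrps11 with -0.52 (SE 0.15, adjusted p = 0.0363), Mrpl9 with -0.49 (SE 0.14, adjusted p = 0.0329) and Mrps9 with -0.45 (SE 0.13, adjusted p = 0.0369). The chow effects behind the largest difference were 0.39 in empty vector muscle and -0.56 in Dux muscle for Mrpl34, and for Mrps34 they were 0.54 and -0.19. The value was positive for 4 members (50.7% of all genes), led by p by Mrpl32 with 0.29 (SE 0.15, adjusted p = 0.249), with 0.13 for Mrps6 and 0.11 for Mrpl17, and the median was -0.38, against 0.01 for all genes. At an unadjusted p under 0.05 there were 40 members (26.9% of all genes).

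Mrpl17, a homologue of the bacterial L17 protein, had 32.9, 32.9 and 30.996 CPM in EV, 27.3, 32.2 and 37.2 in EV_DOX, 35.3, 34.1 and 33.8 in DUX, and 36.5, 34.3 and 40.6 in DUX_DOX, with its lowest library in EV_DOX 1. Of the 7 calls, Mrpl34 passed in each of the 21 alternatives and the others did not. The count was 1 without EV 1, EV 3, EV_DOX 3 or DUX_DOX 2, 2 without DUX 1 or DUX 3, 3 without DUX 2, 21 without EV 2 and 31 without EV_DOX 1. It was 12 with DESeq2 (4.63% of all genes), 14 with upper-quartile scaling, 21 with an offset for GC content and 20 with one for transcript length. Over all genes and both directions, 1426 were called with upper-quartile scaling and 1326 in the main fit. Totals for the offsets and the subsets of libraries were not computed. Of all genes called in the interaction, 67.0% were higher, and 56.9% were with upper-quartile scaling. These comparisons share libraries: EV enters 2 of them, as do EV_DOX, DUX and DUX_DOX, and all 12 libraries enter the interaction, so the values stand side by side and do not support each other.

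Genes called lower were found in both subunits and among proteins of both ancestries. In DUX_DOX against DUX, 13.1% of all genes were called lower. There, 8 of 26 genes of the small subunit were called lower, with a median of -0.21, and 16 of 49 of the large subunit, with a median of -0.27. By ancestry, 16 of 46 proteins with a bacterial homologue were called lower (median -0.24) and 8 of 29 mitochondria-specific ones (median -0.28). This split counts Mrps18a and Mrps18b as mitochondria-specific, although they are relatives of the bacterial S18 protein. In DUX against EV no member of either subunit was called, and 0% of all genes were. The small subunit summed to 773 ± 10.7 CPM in DUX and 663 ± 55.8 CPM in DUX_DOX, and the large subunit to 2084 ± 26.8 CPM and 1705 ± 147 CPM. Differences between subunits were not tested. The 3 Mrps18 genes differed in their values: Mrps18a was called lower, whereas Mrps18b had -0.04 (SE 0.11, adjusted p = 0.833) and Mrps18c 0.01 (SE 0.14, adjusted p = 0.948) against DUX, and Mrps12 had 0.07 (SE 0.11, adjusted p = 0.656).

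The mitochondrial ribosome has 6 measured subunits under other symbols, of which 1, Ptcd3, a small-subunit protein with RNA-binding repeats, was called lower in both comparisons with DUX_DOX. Ptcd3 had -0.65 (SE 0.08, adjusted p = 3.98e-05) against DUX and -0.46 (SE 0.08, adjusted p = 0.000782) against EV_DOX. Dap3, a GTP-binding protein of the small subunit, had 0.11 and 0.14 and did not pass. On doxycycline chow with the empty vector, Gadd45gip1 had 0.33 (SE 0.10, adjusted p = 0.466) and Chchd1 0.22 (SE 0.11, adjusted p = 0.657) against EV. None of the 6 was called there or in DUX against EV, where 0.0392% and 0% of all genes were called.

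Genes that act with the ribosome were taken from lists of its known factors, and their counts stand against 13.1% of all genes lower and 16.5% higher against DUX, and 10.3% and 14.9% against EV_DOX. Of 15 measured translation factors, 10 were called lower in DUX_DOX against DUX and 7 against EV_DOX, and 0 higher, with medians of -0.45 and -0.34. Gfm2, which recycles ribosomes after termination, fell by 0.63 and 0.48 on the log2 scale (adjusted p = 2.21e-05 and 0.000242). Lrpprc, which stabilises mitochondrial messenger RNA, fell by 0.73 and 0.49 (adjusted p = 0.000490 and 0.00838). The other 8 called against DUX were Gfm1 (-0.54), Taco1 (-0.74), Guf1 (-0.49), Mtrf1 (-0.57), Tufm (-0.45), Mtif2 (-0.43), Oxa1l (-0.44) and Mtrf1l (-0.48). Mtfmt, which formylates the initiator methionine, had 0.34 and Mtif3, an initiation factor, 0.22 in EV_DOX against EV, and neither passed.

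Of 25 measured assembly factors and modifiers of ribosomal RNA, 6 were called lower against DUX and 3 against EV_DOX, the latter a share close to that of all genes. Trub2, a pseudouridine synthase, had -0.49 (SE 0.09, adjusted p = 0.00128) against DUX and -0.43 (SE 0.09, adjusted p = 0.00363) against EV_DOX. Nsun4, an RNA methyltransferase, had -0.41 and -0.35, and the GTPase Mtg1 -0.69 and -0.46. Dhx30, an RNA helicase, and Mpv17l2 had -0.22 and 0.37 in EV_DOX against EV and did not pass. Of 11 genes for transcription and replication of mitochondrial DNA, 3 were called lower against DUX and 2 against EV_DOX. Mterf2, of the mitochondrial termination factor family, had -1.09 (SE 0.17, adjusted p = 0.000305) and -0.66 (SE 0.17, adjusted p = 0.0115), and Tfb2m, a transcription initiation factor, -0.40 and -0.37. The elongation factor Tefm had -0.53 (SE 0.13, adjusted p = 0.00732) against DUX, and in EV_DOX against EV it had 0.11 beside 0.16 for the nuclease Mgme1.

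Regulators moved in both directions. Of 11 activators of nuclear genes for mitochondria, 3 were called higher and 4 lower against DUX, and 3 and 3 against EV_DOX. Ppargc1a, the PGC-1alpha coactivator, had -0.81 (SE 0.12, adjusted p = 0.000198) and -0.71 (SE 0.12, adjusted p = 0.000590), and Ppargc1b -0.92 and -0.87. Myc was higher by 0.67 and 1.18, and Nrf1, the factor behind the first promoter motif, by 0.30 (SE 0.10, adjusted p = 0.0341) and 0.51 (SE 0.10, adjusted p = 0.00207). In EV_DOX against EV, Ppargc1b had -0.43 and Gabpa, the ETS factor of GABP, -0.14, and neither passed. Of 20 measured genes of the mitochondrial and integrated stress responses, 6 were called higher and 2 lower against DUX, and 6 and 0 against EV_DOX. Mthfd2, an enzyme of mitochondrial folate metabolism, rose by 2.57 and 2.64, and Atf4, the transcription factor of this response, by 0.73 and 0.83. In EV_DOX against EV, Mthfd2 had 0.39 (SE 0.20, adjusted p = 0.657) and Atf5 0.47 (SE 0.13, adjusted p = 0.463), and 0 genes of the list were called.

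**Figure D4:**
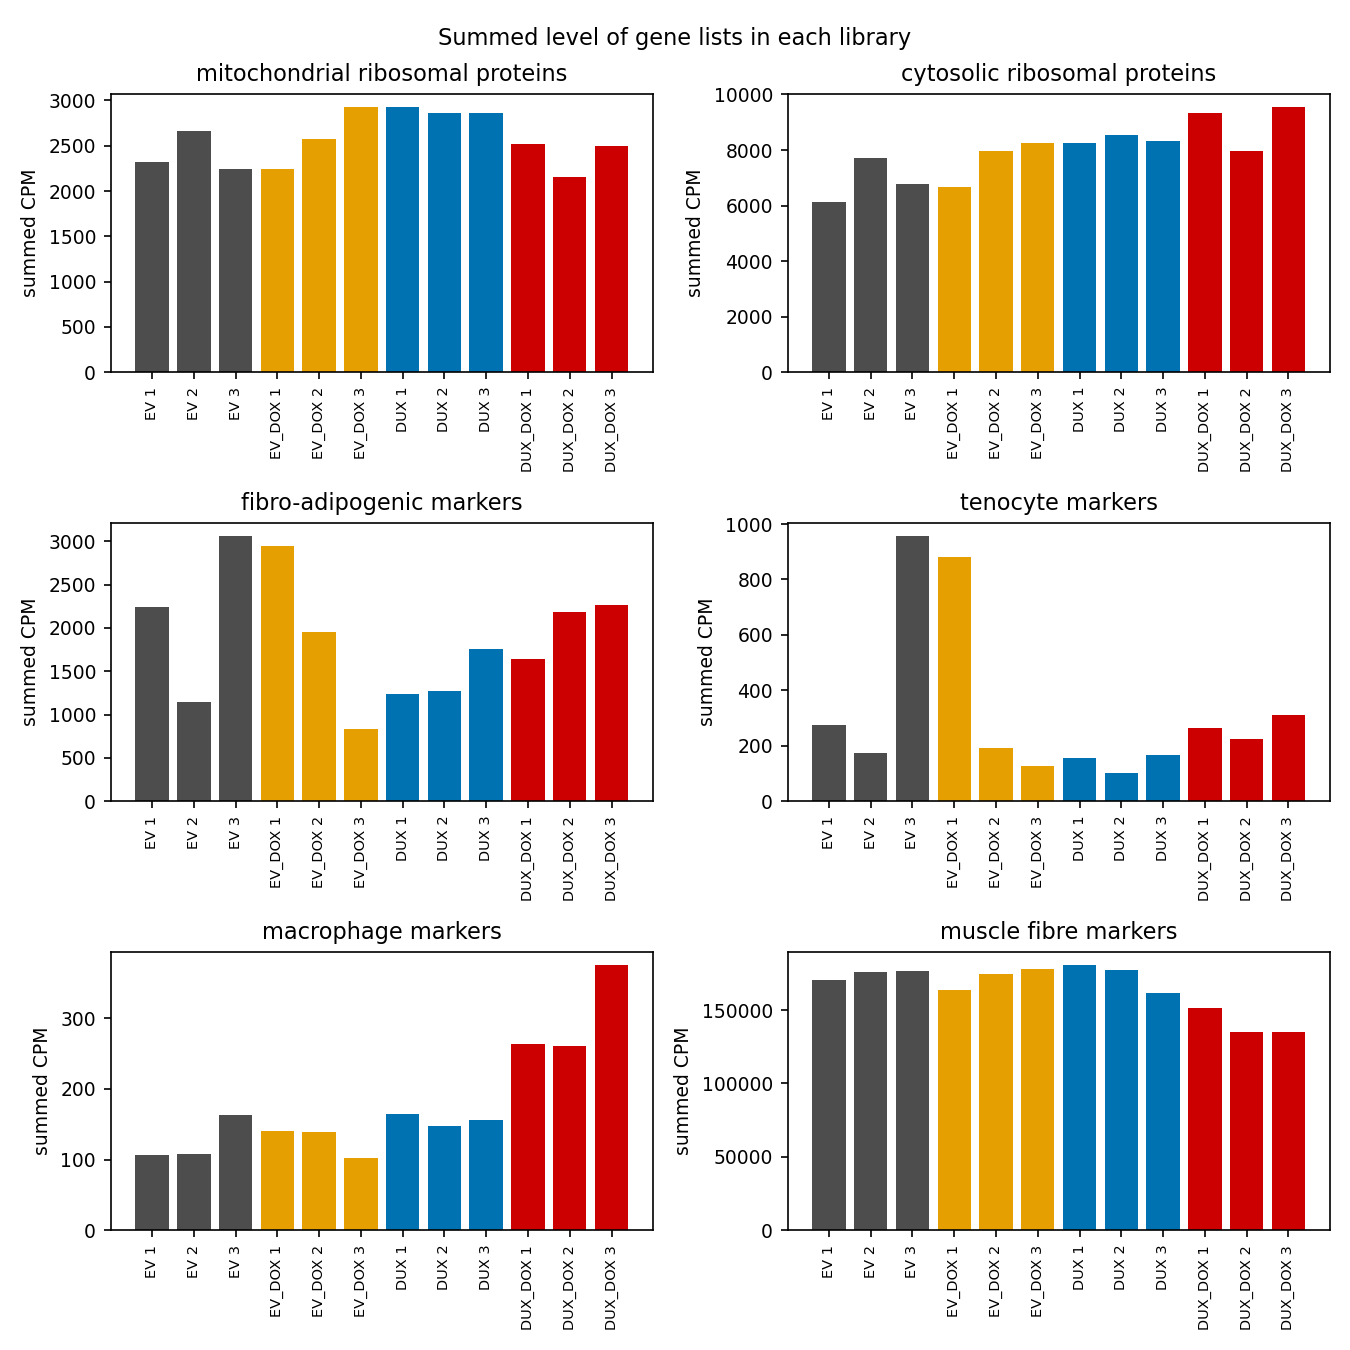
Summed CPM in each of the 12 libraries of the 76 genes, of 75 cytosolic ribosomal protein genes and of 4 marker lists, each axis from 0. The mitochondrial set is lower in all 3 DUX_DOX libraries than in the 3 DUX libraries, the cytosolic set is higher than in DUX in DUX_DOX 1 and 3, tenocyte markers peak in EV 3 and EV_DOX 1, and macrophage markers are highest in DUX_DOX.

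The cytosolic ribosomal protein genes had other values than the mitochondrial ones in the same libraries. The 76 genes summed to 35.2% ± 2.497 (SD, n = 3) of the CPM of the 75 cytosolic genes in EV, 33.9% ± 1.59 in EV_DOX, 34.4% ± 1.02 in DUX and 26.7% ± 0.488 in DUX_DOX. The DUX_DOX libraries, at 26.1% to 27.0%, lay below the other 9, which began at 32.4%. The median fold change of the cytosolic genes was 0.11 against DUX (7 higher, 0 lower) and 0.23 against EV_DOX (14 higher, 0 lower). Against the 37 measured nuclear-encoded complex I subunits the ratio was 38.6% ± 1.02 in EV, 39.1% ± 1.36 in EV_DOX, 37.8% ± 1.01 in DUX and 41.0% ± 1.201 in DUX_DOX. Complex I genes had a median of -0.35 against DUX (20 lower) and the 7 measured mitochondrially encoded messenger RNAs, which this ribosome translates, one of -0.47 (5 lower). Against EV_DOX the medians were -0.17 (1 lower) for complex I and -0.21 (1 lower) for the mitochondrially encoded ones. Of all genes, 13.1% were lower and 16.5% higher against DUX, and 10.3% and 14.9% against EV_DOX.

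**Figure D5:**
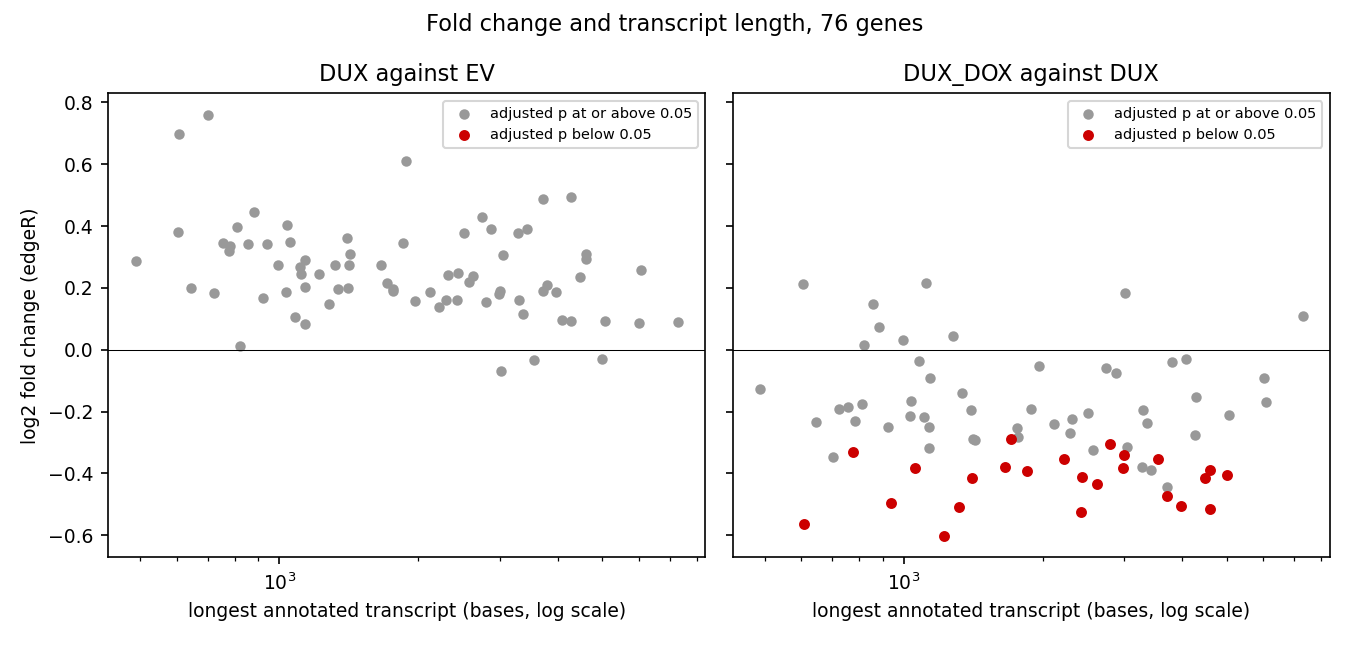
Log2 fold change of the 76 genes against the length of the longest annotated transcript (log axis) in DUX against EV and in DUX_DOX against DUX. Short transcripts had the higher values in DUX against EV, and genes called lower (red) in DUX_DOX against DUX occur among short and long transcripts.

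Transcript length moved with the fold changes in both comparisons against EV. Across the 76 genes, Spearman's rho between fold change and the longest transcript was -0.32 in DUX against EV and -0.40 in EV_DOX against EV, and over 12722 genes it was -0.43 and -0.38. In DUX_DOX against DUX it was -0.19 for the members and 0.02 over all genes, and against EV_DOX -0.19 and -0.06. Genes share libraries and are not independent, so no p is given. In DUX against EV the 38 members shorter than 1866.5 bases had a median of 0.27 and the 38 longer ones 0.19, beside 0.16 and -0.03 for all genes in the same classes. In DUX_DOX against DUX, 10 of the shorter and 14 of the longer members were called lower, against 12.1% and 13.3% of all genes in the same classes. In the interaction, rho was 0.04 for the members and 0.19 over all genes. Shorter and longer members had medians of -0.39 and -0.38 there, beside -0.14 and 0.04 for all genes in these classes. The interaction was called lower for 4 shorter and 3 longer members, against 4.60% and 3.17% of all genes.

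Some members share sequence with a neighbour, and the strand setting of the counting is not given in the sources used here. In the GENCODE M21 annotation, exons of 31 members overlap those of another gene. Mrpl18 overlaps Tcp1, a chaperonin subunit, on the opposite strand, and Tcp1 had 0.06 (SE 0.08, adjusted p = 0.647) against DUX where Mrpl18 fell. Mrps6 overlaps Slc5a3, a myo-inositol transporter, on the same strand, and Slc5a3 rose by 0.98 (SE 0.33, adjusted p = 0.0394) against DUX, so that the value of Mrps6 is uncertain. Exons of Mrps34 overlap Nme3 and Mapk8ip3, and those of Mrps11 overlap Mrpl46, which makes their counts uncertain too. In the same annotation 19 members start within 1000 bases of a gene on the other strand, 17 of them with a measured partner. Of these 17 partners, 3 were called higher and 4 lower in DUX_DOX against DUX, and 4 of the 17 members lower. These shares of partners are not far from the 16.5% and 13.1% of all genes, and in 11 of the 17 pairs both genes had the same sign. Ptcd2, 81 bases from Mrps27, and Pnpla7, 935 bases from Mrpl41, were called lower like their neighbours, with -0.44 (SE 0.12, adjusted p = 0.0126) and -0.51 (SE 0.07, adjusted p = 9.12e-05). In other pairs the values differed. Eme2, whose start lies 29 bases from that of Mrps34, rose by 1.18 (SE 0.23, adjusted p = 0.00172), where Mrps34 had -0.19 (SE 0.13, adjusted p = 0.303). Ppp1r10, 45 bases from Mrps18b, rose by 0.97 (SE 0.12, adjusted p = 4.00e-05), and Sars2, the mitochondrial seryl-tRNA synthetase 172 bases from Mrps12, fell by 0.39 on the log2 scale (adjusted p = 0.0166).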

How the data were processed

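The values are raw read counts per gene as deposited by the authors, and the submitters' processing notes name bcl2fastq 2.17.1.14, the aligner STAR, the counter featureCounts and build GRCm38. The deposited counts cover 12752 genes, with a mean of at least 10 per gene. No source used here gives the other versions or the annotation. Columns were assigned to groups by name, and no library was left out. Counts were tested with the two-sided quasi-likelihood F test of edgeR 4.0.16 (R 4.3.3) on all 12 libraries, with TMM factors (0.916 to 1.12), the default filter (12751 genes) and Benjamini-Hochberg adjustment per comparison at 0.05. Log2 fold changes have a prior count of 0.125. CPM use TMM-scaled totals, and RPKM the summed exon length of GENCODE M21. Alternatives were DESeq2 1.42.0, limma-voom (limma 3.58.1), other scaling factors and filters, subsets of libraries, a replicate block, and offsets for GC content and length chosen after seeing the data. The edgeR fit alone was also run on simulated counts, with 200 genes changed by a factor of 1.2, 1.5 or 2. In EV_DOX against EV it recovered 1.49% of the 1.2-fold and 41.8% of the 1.5-fold changes. In the interaction it recovered 4.48% of the 1.5-fold and 50% of the 2-fold changes, and 12.2% of its calls were false. That share belongs to counts with 200 changed genes and not to the real interaction, in which 1326 genes were called. The other tools and the offsets were not simulated.

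Members and gene lists were chosen with earlier results of these data known. Named members are the 6 positive and 6 negative ones with the smallest p in DUX_DOX against EV_DOX and in EV_DOX against EV, 3 and 3 in the other comparisons, the 3 highest and lowest by RPKM, the Mrps18 genes, Mrps12 and Mrpl12, and 2 per other list. Every library's value is given for called members and for leading ones where none was called. Tcp1, Slc5a3, Eme2, Ppp1r10, Sars2, Ptcd2, Pnpla7 and the further members of the other lists were named after their values were seen. Symbols Mrpl53 and Mrpl58 and 5 pseudogenes with this name pattern are not analysed here.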

Additional observations from a re-analysis of the deposited data

Results flagged for a closer look

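For 7 members the change with doxycycline chow differed between Dux and empty vector muscle by the edgeR interaction test. In Dux muscle that chow also switches on Dux. The log2 difference, Dux vector minus empty vector, was -0.96 for Mrpl34, -0.73 for Mrps34, -0.67 for Mrpl18, -0.54 for Mrps14, -0.52 for Mrps11, -0.49 for Mrpl9 and -0.45 for Mrps9. The same value is the fold change of DUX_DOX against EV_DOX minus that of DUX against EV. Over the 76 genes these had medians of -0.11 and 0.24, so the higher levels in DUX than in EV enter the difference. The main fit called 0 genes in DUX against EV. Mrpl34 was called in each of the 21 alternatives, with adjusted p from 0.00110 to 0.0377, and the other 6 lost the call in at least 1 of them. Exons of Mrps34, Mrpl18, Mrps11 and Mrpl9 overlap another gene. In simulated counts with 200 of 12751 genes changed, 12.2% of the genes that this test called had not been changed. The real interaction called 1326 genes, so this share is not a false rate for the 7 members.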

How the results depend on the processing

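Median fold changes of the 76 genes moved by less than 0.122, the SD between libraries of a group in the median log2 level, in each alternative run, but this is wide beside the smaller medians. The median of EV_DOX against EV ran from -0.01 to 0.18 and so changed sign, and that of DUX_DOX against EV_DOX from -0.22 to -0.0011. The medians ran from -0.35 to -0.20 in DUX_DOX against DUX, from 0.14 to 0.32 in DUX against EV and from -0.49 to -0.27 in the interaction. Summed CPM moved by less than their SD with other scaling factors. Counts of called members moved more. Leaving out 1 library at a time gave 0 to 9 members lower and 0 to 2 higher in DUX_DOX against EV_DOX, 14 to 29 lower in DUX_DOX against DUX, 0 to 3 higher in DUX against EV and 1 to 31 lower in the interaction. Upper-quartile scaling gave 6 lower in DUX_DOX against EV_DOX and 14 in the interaction, and fitting the groups compared alone gave 1 lower in the former and 35 in DUX_DOX against DUX. DESeq2 called 4 members higher in DUX against EV and 12 lower in the interaction. Offsets for GC content and transcript length, added after seeing the data, gave 12 and 18 lower in DUX_DOX against EV_DOX and 21 and 20 in the interaction, and 34 and 41 in DUX_DOX against DUX. In EV_DOX against EV every alternative gave 0 members in both directions, and the main fit called only 5 genes of any kind. For the subsets of libraries and the offsets the share of all genes called was not computed. The cause of these shifts was not tested.

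The correlations of same-numbered libraries across groups ran from -0.42 to 0.20, and both ends came from EV with EV_DOX. For groups that may be limbs of the same animals they were -0.10, 0.18 and 0.12 (EV with DUX) and -0.11, 0.09 and 0.0048 (EV_DOX with DUX_DOX). With 3 libraries per group these values cannot decide whether equal numbers mark the same animal. With the replicate block the interaction was called lower for 3 members in place of 7, and 21 in place of 24 were called lower in DUX_DOX against DUX.

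Of 52 results of named members, 26 kept their direction and side of the threshold throughout, 5 lost a call, 10 gained one and 11 changed sign in some alternative, all 11 of them uncalled values near 0. The GC offset gave 0.0072 for Mrps9 in EV_DOX against EV, 0.0081 for Mrpl1 in DUX against EV and -0.060 for Mrps12 in DUX_DOX against DUX. The length offset gave 0.043 for Mrpl19 in DUX against EV and -0.073 for Mrpl17 in the interaction. With 1 library left out, Mrps17 ran from -0.16 to 0.028 in EV_DOX against EV. In DUX against EV, Mrpl32 ran from -0.12 to 0.029 and Mrpl19 from -0.076 to 0.063, and Mrps6 from -0.037 to 0.32 in the interaction. In DUX_DOX against DUX, Mrps10 ran from -0.090 to 0.069, Mrps18b from -0.13 to 0.054 and Mrps18c from -0.086 to 0.13. Mrps18c had -0.0026 with DESeq2, -0.0050 with upper-quartile scaling, -0.0022 with RLE factors, -0.0013 with limma-voom, -0.045 with the GC offset and -0.025 with the length offset.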
